A study of Mus musculus with 8 samples.

Results

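The Hox genes were examined in endothelial cells sorted from mouse colon on day 2 after bone marrow transplantation. Members were all genes whose symbol is Hoxa, Hoxb, Hoxc or Hoxd followed only by a number from 1 to 13 and that had a probe set annotated to this symbol alone. This gave 36 of the 22180 genes on the array: 9 of the HoxA cluster, 10 of HoxB, 9 of HoxC and 8 of HoxD. Other Hox genes were not analysed here. All recipients were female C57BL/6 mice, conditioned for 5 days with busulfane and cyclophosphamide and then given bone marrow and T cells. Allogeneic recipients (n = 4) received the cells of LP/J donors. Syngeneic recipients (n = 4) received the same cell types from C57BL/6 donors, so every group had been conditioned and transplanted. The donor strain is that of the sample characteristics, since the protocol text calls the sources of these cells recipients. The animals' age was not given in the sources used here. Colon was digested with collagenase, CD31+ cells without CD45 or CD11b were sorted, and each array held the RNA of 1 sample.

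Hox genes encode homeodomain transcription factors that lie in 4 clusters. Within a cluster, genes with low numbers are used near the head and genes with high numbers near the tail of the embryo, and genes of the same number in different clusters are called paralogues. In the gut, the posterior members, above all those of paralogue 13, mark the hindgut from which the colon forms, and adult tissues keep much of the regional code. Several members also act in endothelial cells: HOXA3, HOXB3 and HOXD3 favour vessel growth in cultured cells, whereas HOXA5 and HOXD10 restrain it.

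Values are RMA-normalized log2 signals, and a change is the allogeneic minus the syngeneic mean. The sort marker Pecam1 lay between 9.76 and 11.58 and the junction gene Cdh5 between 9.20 and 11.37 over the 8 arrays, while the pan-leukocyte gene Ptprc (4.42 to 6.18) and Itgam (4.99 to 5.92) lay around the median gene (5.33). The epithelial regulator Cdx2 was also high, between 7.14 and 8.42, and many other epithelial markers were higher. The mean of 18 epithelial markers lay between 10.20 and 10.80 over the arrays, and that of 20 endothelial markers between 7.79 and 10.02. The fibroblast gene Dpt lay between 9.18 and 10.88. A Hox signal therefore cannot be assigned to endothelial cells. In such bulk samples fewer cells of a type and less RNA per cell cannot be told apart. Syngeneic arrays 3 and 4 stood apart from the other arrays by their endothelial marker signal, as given with the marker lists further on.

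No Hox gene passed an adjusted p of 0.05 in limma, where 0.469% of all genes (104 of 22180) did. An unadjusted p below 0.05 was found for 5 of the 36 Hox genes (13.9%), 3 with a positive and 2 with a negative change, against 13.2% of all genes. The 4 allogeneic arrays lay entirely above or below the 4 syngeneic arrays for 3 Hox genes (8.33%), against 8.55% of all genes. Both shares were close to those of the whole array. The median log2 change was 0.03 over the Hox genes and -0.01 over all genes, and 19 of 36 changes were positive (52.8%, against 49% of all genes). The 95% interval of the change lay within 2-fold in either direction for 35 Hox genes (97.2%, against 91.7% of all genes). Hoxb13 was the exception. Smaller changes could not be told from the spread between arrays for most members, and a p above the threshold does not show that 2 groups were alike. The labels call the arrays of a group biological replicates.

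**Figure D1:**
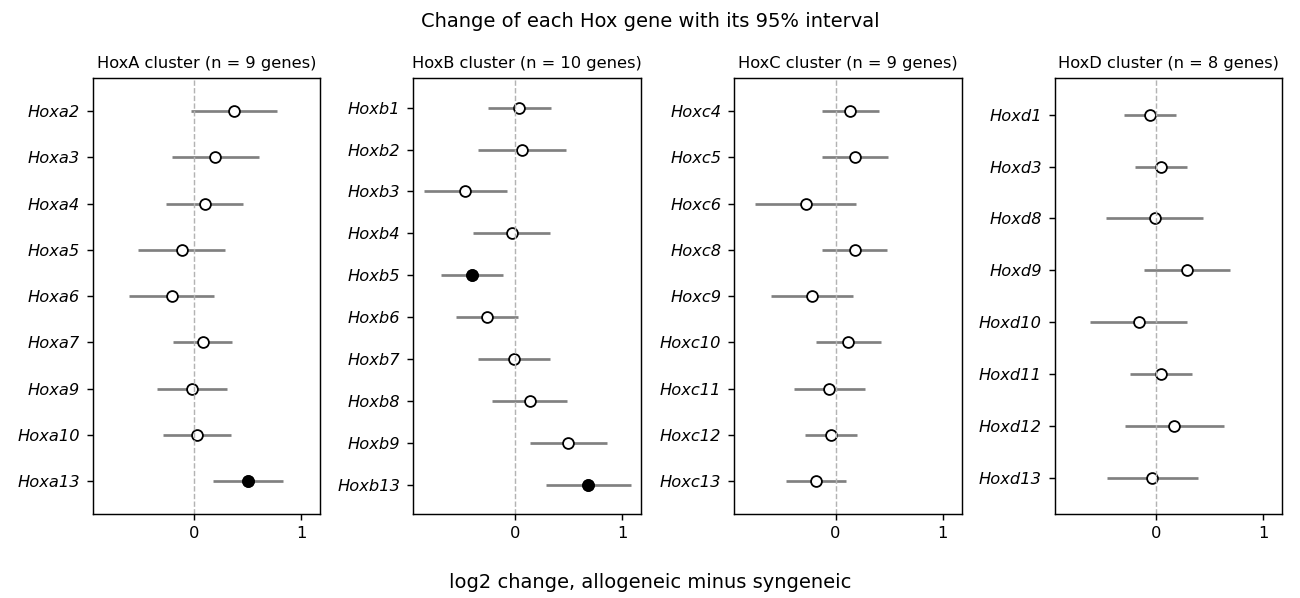
The log2 change of each Hox gene (x axis, allogeneic minus syngeneic) with its 95% interval from limma (bars), in a panel for each cluster and ordered by paralogue number. Filled points mark Hoxb13, Hoxa13 and Hoxb5, whose 4 allogeneic arrays lay entirely on one side of the 4 syngeneic arrays. Most intervals include 0, and only that of Hoxb13 (0.29 to 1.08) reaches beyond 1.

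The clusters differed in where their probe sets lay in the range of the array. All 9 HoxC probe sets stayed below the median gene on every array, with values between 2.82 and 4.48. For comparison, 3 Y-linked genes, which female recipients lack, reached at most 3.18 and give a guide to background. Of the HoxC genes, 6 lay above that value on every array, and Hoxc5, Hoxc6 and Hoxc8 did not. In HoxA, 8 of 9 probe sets lay above the median gene on every array, and Hoxa3 (4.33 to 5.16) lay below it. HoxB ran from 3.85 to 8.86, with 5 of 10 probe sets above the median gene on every array, and HoxD from 3.16 to 7.29, with 2 of 8. The signal of a probe set also depends on its probes, so these positions do not order the genes by transcript number, and no detection call was used.

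**Figure D2:**
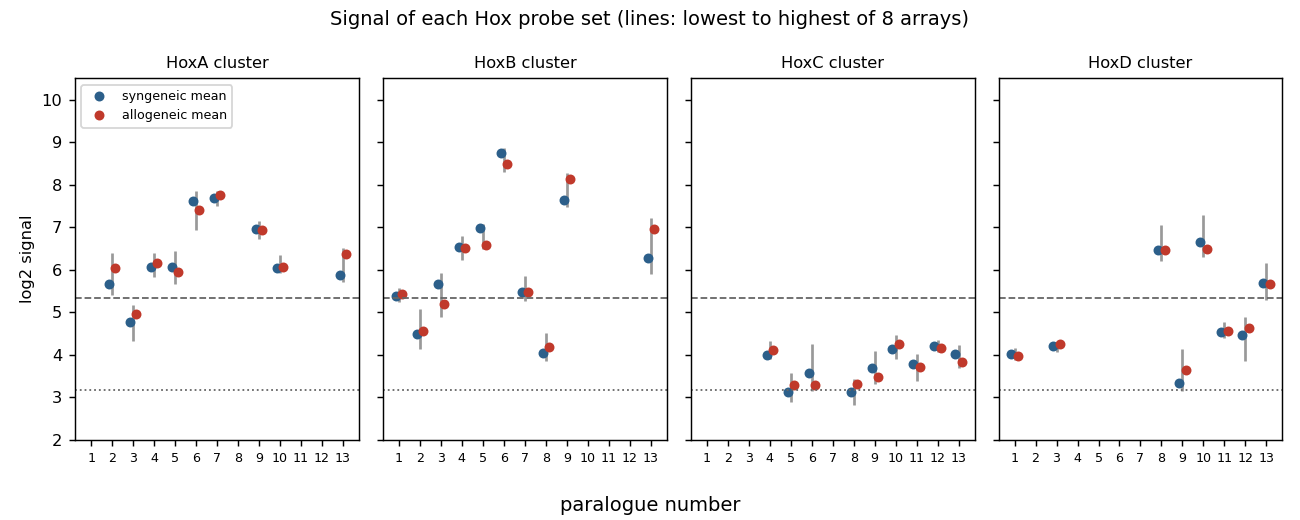
Mean log2 signal of each Hox probe set (y axis) by paralogue number (x axis) in the 4 clusters, for syngeneic (blue) and allogeneic (red) arrays (n = 4 each). Grey lines span the lowest to the highest of the 8 arrays, the dashed line is the median gene (5.33) and the dotted line the highest Y-linked value (3.18). The HoxC probe sets all lie below the dashed line.

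Among the posterior genes, Hoxb13 had the largest change of the family and the smallest p. It is active in the epithelium of distal colon and prostate. Its log2 signals were 6.90, 6.67, 7.02 and 7.23 on allogeneic arrays 1 to 4 and 6.31, 6.57, 6.30 and 5.89 on syngeneic arrays 1 to 4. The groups did not overlap, and array 2 of each group lay nearest to the other group. The log2 change was 0.68 ± 0.18 (SE), or 1.61-fold, with a 95% interval from 0.29 to 1.08 (limma adjusted p = 0.130). Over 20 other settings of the analysis it ranged from 0.47 to 0.79, and its limma adjusted p from 0.0796 to 0.438. Its paralogue Hoxa13, which is needed for hindgut and limb formation, gave 6.43, 6.12, 6.43 and 6.51 on the allogeneic and 6.09, 5.71, 5.75 and 5.95 on the syngeneic arrays. Again the groups did not overlap, with allogeneic array 2 and syngeneic array 1 next to each other. The change was 0.50 ± 0.15 (SE), or 1.41-fold (limma adjusted p = 0.173).

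The other paralogues of number 13 did not have a positive change. Hoxd13, which acts with Hoxa13 in hindgut and digits, had means of 5.65 ± 0.11 and 5.69 ± 0.40 (allogeneic and syngeneic, SD, n = 4), and its syngeneic values spread from 5.28 to 6.16. Hoxc13, known from hair and nails, gave 3.69, 3.92, 3.95 and 3.75 against 4.09, 4.24, 3.84 and 3.88. Its groups overlapped, with a change of -0.18 ± 0.13 (SE, limma adjusted p = 0.594), and its signal was low throughout.

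Hoxb9, a regulator of thoracic and mammary development, had the third largest positive change. Its values were 8.27, 8.24, 7.89 and 8.18 on the allogeneic and 8.06, 7.52, 7.54 and 7.48 on the syngeneic arrays. Syngeneic array 1 lay among the allogeneic arrays, and the other 3 syngeneic arrays lay close together below all of them. The change was 0.50 ± 0.16 (SE), or 1.41-fold (limma adjusted p = 0.215). Hoxd9 gave 3.45, 4.14, 3.21 and 3.73 against 3.16, 3.44, 3.40 and 3.39, near the Y-linked values, with a change of 0.29 ± 0.18 (SE, limma adjusted p = 0.545). Hoxa9, which takes part in endothelial commitment and in the inflammatory response of endothelial cells, averaged 6.94 ± 0.21 and 6.96 ± 0.12 (SD, n = 4 each). Its 95% interval from -0.34 to 0.30 leaves room for changes up to that size. Hoxa10, of the uterus and blood lineages, had a change of 0.03 with a like interval (-0.29 to 0.34). Hoxd10, the restrainer of vessel growth, lay between 6.30 and 6.59 on 7 arrays and at 7.29 on syngeneic array 1, and its change was -0.16 ± 0.20 (SE). Hoxd11 (0.04) and Hoxd12 (0.17), limb and kidney regulators, Hoxc10 (0.12), Hoxc11 (-0.06) and Hoxc12 (-0.04) had smaller changes than Hoxb13, Hoxa13 and Hoxb9, with limma adjusted p-values of 0.767 or more.

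**Figure D3:**
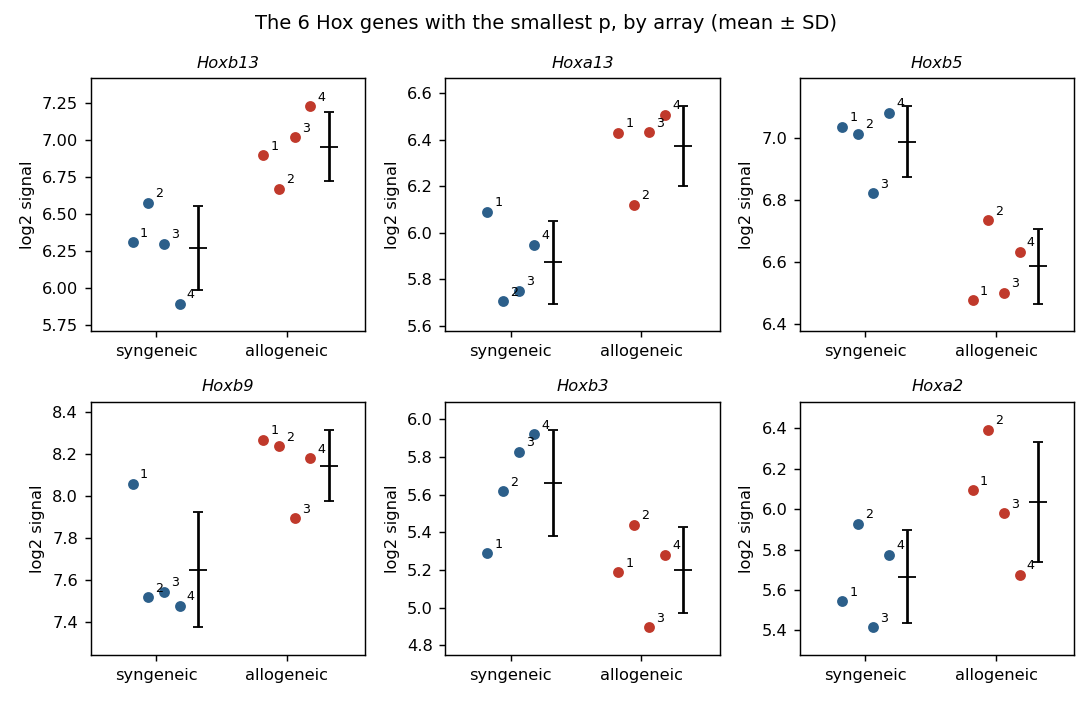
Log2 signal (y axis) of the 6 Hox genes with the smallest p on each array, for syngeneic (blue) and allogeneic (red) recipients. Small figures are replicate numbers, and black bars show the mean ± SD of 4 arrays. Hoxb13, Hoxa13 and Hoxb5 do not overlap between groups, while syngeneic array 1 of Hoxb9 (8.06) and allogeneic array 2 of Hoxb3 (5.44) lie within the range of the other group.

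The start of Hoxa13 is shown because it was the only member with separated groups and a sequence in the RefSeq promoter table, which held 22 promoters of 20 member genes. The 250 bases before the start lie on the minus strand of GRCm38.p6 at chr6:52260881-52261130, and capitals mark CpG dinucleotides, the sites of DNA methylation.
Hoxa13: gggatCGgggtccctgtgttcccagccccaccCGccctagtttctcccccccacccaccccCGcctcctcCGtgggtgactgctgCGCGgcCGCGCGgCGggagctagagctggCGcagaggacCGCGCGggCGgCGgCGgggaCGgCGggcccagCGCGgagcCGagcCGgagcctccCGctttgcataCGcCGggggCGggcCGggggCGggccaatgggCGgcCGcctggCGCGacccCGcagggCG
They hold 35 CpG dinucleotides, a number reached by 2.97% of the 32851 promoters in the table, and 80.0% of the bases are G or C. Hoxd13 held 31 in the same window. The median was 12.5 over the promoters of member genes and 6.0 over all. CpG number is a property of the sequence, and no methylation was measured here.

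Among the central genes, Hoxb5 was the only one whose groups did not overlap. It acts in the neural crest cells that form the enteric nervous system. Its log2 signals were 6.48, 6.73, 6.50 and 6.63 on the allogeneic and 7.03, 7.01, 6.82 and 7.08 on the syngeneic arrays, so that every allogeneic array was lower. The change was -0.40 ± 0.13 (SE), 1.32-fold lower (limma adjusted p = 0.215). Hoxb5 was also the only member with 2 probe sets of its own. The dimmer of them had values from 5.04 to 5.61 in allogeneic and from 4.94 to 5.11 in syngeneic arrays, a change of 0.22 in the opposite direction (limma adjusted p = 0.564 in the fit of all probe sets). The direction for Hoxb5 therefore rests on which probe set is read. The annotation used gives no strand, so whether both probe sets read the sense transcript was not tested.

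Hoxb6, next to Hoxb5 in the cluster, gave 8.47, 8.77, 8.30 and 8.44 against 8.85, 8.86, 8.66 and 8.64. Only allogeneic array 2 lay within the syngeneic range, and the change was -0.26 ± 0.13 (SE, limma adjusted p = 0.441). Its paralogue Hoxa6 was at -0.21 ± 0.18 and lowest on allogeneic array 3 (6.93, other arrays 7.39 to 7.85). Hoxc6 gave 3.42, 3.37, 3.15 and 3.25 against 3.14, 3.27, 4.26 and 3.63, and its change of -0.28 ± 0.21 (SE, limma adjusted p = 0.632) came from syngeneic arrays 3 and 4. Without these arrays it was 0.09. All 3 genes of paralogue 6, which act in thoracic patterning, thus had a negative change in the fit of 8 arrays, and none passed.

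The other central genes had smaller changes. Hoxc5 gave 3.11, 3.36, 3.15 and 3.58 against 3.04, 2.89, 3.31 and 3.23 (0.18 ± 0.14 SE, limma adjusted p = 0.629). Hoxc8, a gene of the thoracic skeleton and its motor neurons, gave 3.44, 3.39, 3.30 and 3.13 against 3.07, 3.39, 2.82 and 3.26 (0.18 ± 0.14 SE, limma adjusted p = 0.637). Both overlapped between groups and lay near the Y-linked values, where differences are hard to read. Hoxa5, which patterns stomach and lung and restrains vessel growth, averaged 5.94 ± 0.21 and 6.06 ± 0.33 (SD, n = 4 each), a change of -0.12. Hoxa4 (0.10), Hoxa7 (0.08), Hoxb4 (-0.03), a gene of blood stem cells, Hoxb7 (-0.01), Hoxb8 (0.14), a gene of myeloid progenitors, Hoxc4 (0.14) and Hoxd8 (-0.02) had changes of either sign. Hoxd8, which is active in lymphatic vessels, was highest on syngeneic array 4 (7.04) and lay between 6.19 and 6.76 elsewhere.

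Among the anterior genes, Hoxb3 had the lowest change of the family. Its log2 signals were 5.19, 5.44, 4.90 and 5.28 on the allogeneic and 5.29, 5.62, 5.83 and 5.92 on the syngeneic arrays. Only allogeneic array 2 and syngeneic array 1 crossed. The change was -0.46 ± 0.18 (SE), 1.38-fold lower (limma adjusted p = 0.289), and -0.25 without syngeneic arrays 3 and 4, on which Hoxb3 was highest. Its paralogues Hoxa3, a gene of thymus and carotid body (0.20 ± 0.18), and Hoxd3 (0.04 ± 0.11) had positive changes (SE, limma adjusted p = 0.702 and 0.914). Hoxa2, known for patterning the hindbrain and its neural crest, gave 6.09, 6.39, 5.98 and 5.67 against 5.55, 5.93, 5.42 and 5.77. The groups overlapped, with a change of 0.37 ± 0.18 (SE, limma adjusted p = 0.422). Hoxb1 (0.04), Hoxb2 (0.07), both of the hindbrain, and Hoxd1 (-0.06) had limma adjusted p-values between 0.879 and 0.929.

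By cluster, the median log2 change was 0.08 in HoxA (6 of 9 positive), 0.02 in HoxB (5 of 10), -0.04 in HoxC (4 of 9) and 0.01 in HoxD (4 of 8). An unadjusted p below 0.05 in limma was found for 4 of 10 genes in HoxB and 1 of 9 in HoxA, against 13.2% of all genes. It was found for 0 of 9 in HoxC and 0 of 8 in HoxD. The smallest limma adjusted p in HoxB was 0.130. Within HoxB, both posterior genes, Hoxb9 and Hoxb13, had positive changes, 4 of the 5 central genes had negative ones and the 3 anterior genes were mixed. Of the negative central changes, those of Hoxb4 (-0.03) and Hoxb7 (-0.01) were small and turned positive with the fibroblast marker mean as a covariate. The dimmer probe set of Hoxb5 had a positive change (0.22). In HoxA, the posterior genes were at -0.02 (Hoxa9), 0.03 (Hoxa10) and 0.50 (Hoxa13). By position, the median change was 0.04 for paralogues 1 to 3 (n = 7), -0.01 for 4 to 8 (n = 14) and 0.03 for 9 to 13 (n = 15), against -0.01 over all genes. Of the 13 paralogue numbers 2 had members whose changes all had the same sign, number 2 (positive) and number 6 (negative). The other 11 were mixed. Whether the changes follow the order of the genes was not tested.

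The mean over the 36 Hox genes lay between 5.24 and 5.46 on the allogeneic arrays and between 5.29 and 5.33 on the syngeneic arrays. The allogeneic arrays gave 5.34 ± 0.10 and the syngeneic arrays 5.31 ± 0.02 (SD, n = 4 per group). Allogeneic array 2 held the highest value of 10 Hox genes and the lowest of none, and syngeneic array 3 the lowest value of 10. Hoxc6 (4.26) and Hoxc9 (4.09) were highest on syngeneic array 3 and next highest on array 4 (3.63 and 3.94), while the other 6 arrays stayed at or below 3.42 and 3.50. The change of Hoxc9, a thoracic gene that restrains vessel growth, was -0.22 with and 0.11 without these 2 arrays. Hoxa13 and Hoxb13 had changes of 0.47 and 0.51 without them.

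Marker lists of the cells that the sort could hold gave the following picture. All 20 endothelial markers had a negative change and none passed, and their mean lay between 7.79 and 8.53 on allogeneic arrays and between 8.06 and 10.02 on syngeneic ones, where arrays 3 (9.14) and 4 (10.02) were highest. Of 18 epithelial markers 16 had a positive change. Their mean lay between 10.69 and 10.80 on allogeneic arrays and on syngeneic arrays 1 and 2 between 10.70 and 10.78, but at 10.45 and 10.20 on syngeneic arrays 3 and 4. The summed linear signal ran from 5908 to 10233 in allogeneic and from 7271 to 28365 in syngeneic arrays for the endothelial list, and from 44979 to 47164 and 32415 to 48200 for the epithelial list. Of 15 fibroblast markers 11 had a positive change (means of 6.87 to 7.76 and 6.70 to 7.17, sums of 3986 to 7574 and 3104 to 4954). The median change of the fibroblast list was 0.17, and 4 of its markers had a negative change. The largest change was that of Pdgfra (1.03), while the matrix gene Dpt (0.94) had the smallest p of the list in limma. The 3 markers of the interstitial cells of Cajal, the pacemaker cells of gut muscle, all had positive changes, with Kit at 0.68 and Ano1 at 0.85, means of 7.28 to 7.72 against 6.84 to 7.31 and sums of 618 to 886 against 409 to 569. None of these genes passed in limma, and none lay at or below the highest Y-linked value on all arrays.

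Smooth muscle and pericyte genes had a median change of -0.27 (2 of 13 positive), lymphatic genes of 0.03 (4 of 6), genes of enteric glia of 0.04 (5 of 5), genes of enteric neurons of -0.28 (2 of 9) and leukocyte genes of -0.03 (8 of 16). In the last list S100a8 passed, at -1.94 (limma adjusted p = 0.00424). Its allogeneic values (2.59 to 3.41) lay around the highest Y-linked value (3.18), so the size of this change is hard to read. With the endothelial, epithelial or fibroblast mean as a covariate, the change of Hoxb13 was 0.56, 0.47 and 0.54, that of Hoxa13 0.55, 0.51 and 0.43, and that of Hoxb5 -0.40, -0.40 and -0.37. The changes of these 3 genes kept their sign in each of these fits, and none passed. The part of other lists in the results was not tested.

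**Figure D4:**
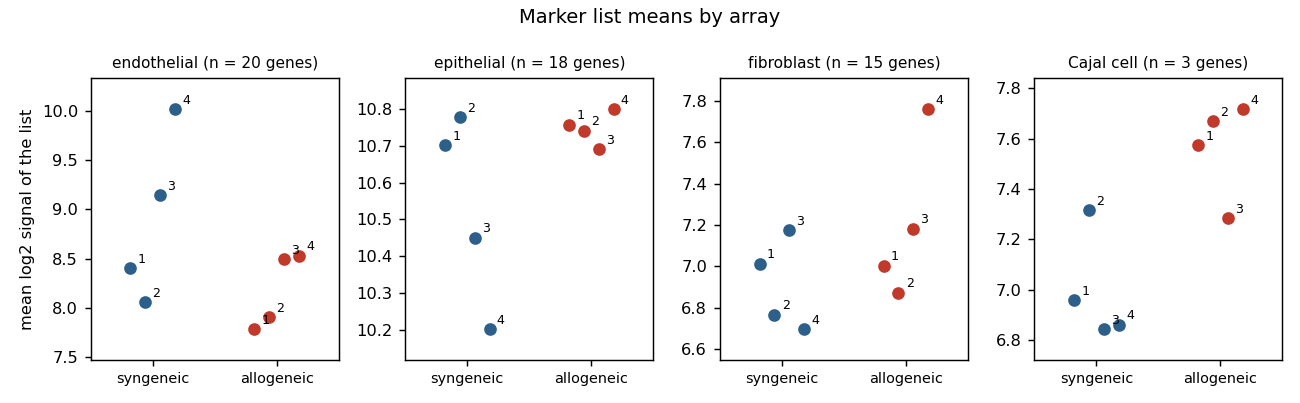
Mean log2 signal (y axis) of the endothelial, epithelial, fibroblast and Cajal cell marker lists on each array, for syngeneic (blue) and allogeneic (red) recipients, with replicate numbers. Syngeneic arrays 3 and 4 are highest for the endothelial list (9.14 and 10.02) and lowest for the epithelial one (10.45 and 10.20).

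The Hox clusters also hold microRNA genes and antisense transcripts, of which 7 of the 20 listed had a probe set of their own. MicroRNAs of the miR-196 and miR-10 families lie between Hox genes, and miR-196 is known to target transcripts of Hoxb8 and of other Hox genes. Their mature sequences show why a locus is named here and not a mature product: the seed, bases 2 to 8 from the 5′ end, is in capitals.
miR-196a-5p, from Mir196a-1 in HoxB and Mir196a-2 in HoxC: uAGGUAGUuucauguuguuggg
miR-196b-5p, from Mir196b in HoxA: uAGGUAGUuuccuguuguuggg
miR-10a-5p, from Mir10a in HoxB: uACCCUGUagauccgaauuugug
miR-10b-5p, from Mir10b in HoxD: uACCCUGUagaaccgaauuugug
Both loci of miR-196a give the same 22 bases, miR-196b-5p differs from them by A12C, and miR-10b-5p differs from miR-10a-5p by U12A, with positions counted from the 5′ end and the sequences taken from RefSeq (GRCm38.p6). Seeds are shared within each family.

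Mir196a-1, which lies between Hoxb13 and Hoxb9, had the largest change of any transcript of the clusters. Its log2 signals were 6.87, 5.79, 6.38 and 6.92 on the allogeneic arrays and 4.00, 4.10 and 4.17 on syngeneic arrays 1 to 3, but 6.95 on syngeneic array 4. That array reached the highest value of all 8, and the groups overlap only there. The change was 1.69 ± 0.58 (SE), or 3.22-fold (limma adjusted p = 0.241). Without syngeneic array 4 it was 2.40 (limma adjusted p = 0.00600), and without arrays 3 and 4 it was 2.44 (limma adjusted p = 0.0240). Both of these fits leave out array 4, the only syngeneic array that overlaps the allogeneic ones. Mir196a-1 passed in none of the other settings tried. Its change ranged from 1.42 to 2.63 over 20 settings, with a limma adjusted p of up to 0.452. The probe set reports RNA with this annotation, and the array cannot tell a precursor from the mature product. The neighbours did not follow the same arrays: Hoxb9 was highest on array 1 of the syngeneic group and Hoxb13 lowest on array 4. Mir196a-2, in HoxC, lay between 2.68 and 3.72, around the highest Y-linked value, and Mir10b between 2.18 and 3.12, below it.

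Hoxaas3 is an antisense RNA gene whose midpoint lies between those of Hoxa6 and Hoxa7. It gave 7.56, 7.42, 6.84 and 7.35 on the allogeneic and 6.40, 6.49, 6.26 and 6.68 on the syngeneic arrays. The groups did not overlap. The change was 0.83 ± 0.18 (SE), or 1.78-fold, and just missed the threshold (limma adjusted p = 0.0726). With genes below the median left out it passed (limma adjusted p = 0.0472), and over 20 other settings its limma adjusted p ranged up to 0.219. The coding genes Hoxa6 (-0.21) and Hoxa7 (0.08) did not show a like change. Which coding genes Hoxaas3 overlaps was not tested. Hotair (0.02), Hoxd3os1 (-0.17) and Mir615 (-0.0040) completed the list.

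**Figure D5:**
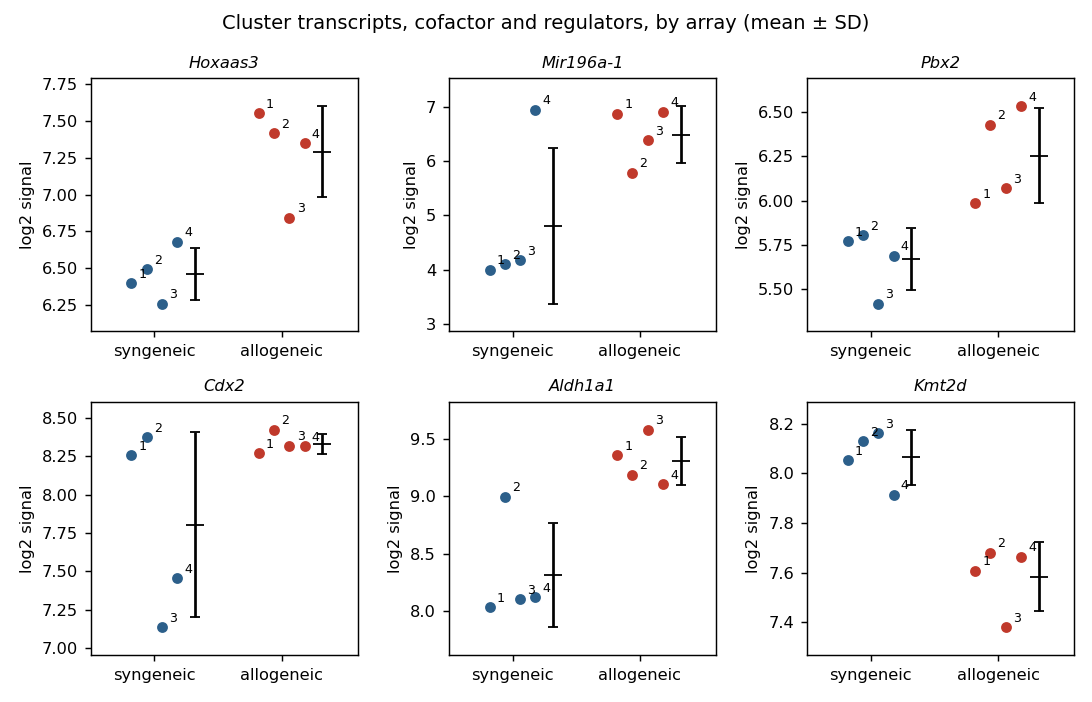
Log2 signal (y axis) on each array of Hoxaas3 and Mir196a-1 from the Hox clusters, the cofactor Pbx2, the upstream regulator Cdx2, the retinaldehyde dehydrogenase Aldh1a1 and the histone methyltransferase Kmt2d, for syngeneic (blue) and allogeneic (red) recipients. Black bars show the mean ± SD of 4 arrays. Syngeneic array 4 lies among the allogeneic arrays for Mir196a-1 (6.95), and syngeneic arrays 3 and 4 are low for Cdx2 (7.14 and 7.46).

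Hox proteins bind DNA together with PBX and MEIS partners, and their clusters are set by CDX factors, retinoic acid and the Polycomb and trithorax complexes. Over 6 lists, which hold such genes, the cluster transcripts and regional gut transcription factors, none of the 89 measured genes passed in limma. An unadjusted p below 0.05 was found for 11 (12.4%, against 13.2% of all genes), and 8 had separated groups (8.99%, against 8.55%). Of the 9 cofactor genes measured, Pbx2 gave 5.98, 6.43, 6.07 and 6.54 against 5.77, 5.80, 5.42 and 5.69, without overlap (0.58 ± 0.17 SE, limma adjusted p = 0.155). Meis2 (-0.41), highest on syngeneic array 4 at 7.03, and Pbxip1 (0.21), a PBX-binding protein gene, overlapped.

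Of the 6 genes of the Cdx and ParaHox families, Cdx2 was at 0.53 and Cdx1 at 0.23 (limma adjusted p = 0.407 and 0.619). Cdx2 was low on syngeneic arrays 3 and 4 (7.14 and 7.46) and lay between 8.26 and 8.42 on the other 6 arrays. Without these arrays the changes were 0.017 for Cdx2 and -0.0038 for Cdx1. Gsx1 was at 0.13. In the retinoic acid list (17 measured), Aldh1a1, which makes retinoic acid, gave 9.36, 9.19, 9.58 and 9.10 against 8.03, 8.99, 8.10 and 8.12. The groups did not overlap, and the change of 0.99 ± 0.21 (SE), or 1.99-fold, missed the threshold (limma adjusted p = 0.0741). It passed without syngeneic array 2 (1.22, limma adjusted p = 0.0137) and with dim genes left out (limma adjusted p = 0.0473). The fit of 8 arrays also passed it at the looser threshold of 0.1. In the other settings it did not pass 0.05. There the change was as low as 0.79 and the limma adjusted p as high as 0.273 (both without syngeneic arrays 3 and 4). The receptor genes Rarg and Rxra were at -0.34 and 0.29.

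Of 35 Polycomb and trithorax genes, 23 had a positive change, and the median was 0.05. Kmt2d, an enhancer methyltransferase of histone H3, gave 7.61, 7.68, 7.38 and 7.66 against 8.05, 8.13, 8.16 and 7.91, lower on every allogeneic array (-0.48 ± 0.13 SE, limma adjusted p = 0.133). Kmt2a, which maintains Hox expression in development, was at -0.36 ± 0.13 and overlapped (limma adjusted p = 0.255), and Ash2l, a subunit shared by both enzymes' complexes, was at 0.42 ± 0.12 without overlap (limma adjusted p = 0.160). Of 15 regional gut transcription factors 11 had a negative change. Tbx3 was at -0.58 ± 0.19 without overlap (limma adjusted p = 0.216), Foxd2 at 0.37 (limma adjusted p = 0.368) and the mesenchymal and endothelial factor Foxf1 at -0.59 (limma adjusted p = 0.472), with its highest values on syngeneic arrays 3 and 4 (8.34 and 9.21).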

How the data were processed

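The authors deposited 1 table of log2 values per probe set (41345 probe sets, 8 arrays, 0 missing values), for which the submitters' processing notes name RMA and Expression Console 1.4.1 (Affymetrix). RMA subtracts background, equalizes the distribution of probe signals across arrays and summarizes probes, so signals are relative to the array. Summary level and annotation were not given in the sources used here. Per the labels' protocols, targets were amplified from 700 pg of RNA.

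Probe sets were named through the platform annotation: 23521 had exactly 1 symbol, 1814 several and 16010 none listed. For genes with several, the probe set with the highest mean was used. Of probe sets with a Hox symbol, 37 held it alone and 7 among several. A linear model with the group was fitted to all 22180 genes in limma 3.58.1 (R 4.3.3) with an intensity trend, no filter and Benjamini-Hochberg adjustment over all genes (threshold 0.05). The fit was checked on simulated data with known changes added to genes above the median gene. The share of changes found is not reported here, so this check gives no power for changes of the size seen in Hox genes.

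The members and lists were chosen with earlier results of these data known, so they are not independent of them. Every-array values are given for members past the threshold, with groups that do not overlap, or among the 12 smallest p-values. Of each related list the 3 genes with the smallest p are named, with Cdx1, Cdx2, Pecam1, Cdh5, Ptprc, Itgam and any listed gene past the threshold. The marker genes Dpt, Pdgfra, Kit and Ano1 were chosen after their values were seen. Batch and scan date were not given. The number of arrays limits the precision.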

Additional observations from a re-analysis of the deposited data

Results flagged for a closer look

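In groups of 4 arrays a single array was set apart when its gap to the nearest array was a larger part of the range of the group than Dixon's 95% critical value allows. Of 120 groups (60 genes in 2 groups), 10 had such an array, and chance gives about 1 in 20 for independent, normally distributed values. The share over all genes was not computed, and some of the 60 genes were chosen by their p. The count therefore does not show an excess. For Hox genes these were Hoxa6 on allogeneic array 3 (6.93, nearest 7.51), Hoxb7 on allogeneic array 1 (5.39, nearest 5.50), Hoxb9 on syngeneic array 1 (8.06, nearest 7.54), Hoxd3 on allogeneic array 4 (4.13, nearest 4.27), Hoxd8 on syngeneic array 4 (7.04, nearest 6.34) and Hoxd9 on syngeneic array 1 (3.16, nearest 3.39). Among related genes they were Mir196a-1 on syngeneic array 4 (6.95, nearest 4.17), Aldh1a1 on syngeneic array 2 (8.99, nearest 8.12), Rarg on syngeneic array 4 (7.03, nearest 6.37) and Pbxip1 on allogeneic array 4 (7.44, nearest 6.90). The gaps of Hoxb7, Hoxd3 and Hoxd9 are small on the log2 scale, and that of Mir196a-1 is the widest of the 10.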

How the results depend on the processing

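No Hox gene passed under any of the 21 alternatives, and the median Hox change stayed between -0.02 and 0.07. Counts over all genes moved more. Without 1 array, between 4 and 145 genes were higher and between 4 and 35 lower, where leaving out allogeneic array 1, or syngeneic array 3, gave 4 higher genes, and leaving out syngeneic array 2 gave 145. Dropping genes below the median gave 138 and 55, an adjusted p of 0.1 gave 203 and 102, and array weights gave 39 lower genes. Without syngeneic arrays 3 and 4 there were 26 and 12, with the endothelial covariate 25 and 13, with the epithelial one 19 and 8, and with the fibroblast one 4 and 4. The cause was not tested. With the replicate block there were 40 higher genes. Deviations of same-numbered arrays correlated between -0.0963 and 0.0954. With so few arrays this cannot show whether the numbers pair the samples, and the sample titles name no pairing. The groups of 7 Hox genes (19.4%) did not overlap without syngeneic arrays 3 and 4, against 20.7% of all genes in that setting. Without 1 array it was 3 to 5 Hox genes (8.33% to 13.9%), against 11.2% to 13.9% of all genes. Among the genes named by the rule or as markers, signs turned for Hoxc6 (0.0923), Cdx1 (-0.0038), Pecam1 (0.13) and Cdh5 (0.0649) without syngeneic arrays 3 and 4. They also turned for Pecam1 (0.14) and Cdh5 (0.11) with the endothelial covariate, and for Cdx1 (-0.0437), Pecam1 (0.13) and Cdh5 (0.0748) with the epithelial one. Pecam1 and Cdh5 belong to the endothelial list, so the endothelial fit adjusts them for a mean that holds them and says little about them. Over all 36 Hox genes, the sign turned for 6 without syngeneic arrays 3 and 4 (Hoxc6, Hoxc9, Hoxc11, Hoxd3, Hoxd8 and Hoxd11), for 3 with the endothelial covariate (Hoxa7, Hoxd8 and Hoxd11), for 5 with the epithelial one (Hoxa7, Hoxb1, Hoxc9, Hoxd8 and Hoxd11) and for 5 with the fibroblast one (Hoxa10, Hoxb1, Hoxb4, Hoxb7 and Hoxd8). None of these members had passed in the fit of 8 arrays. The number of arrays limits every cluster alike, and signals near the Y-linked values limit several HoxC genes and Hoxd9.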
